A study of Homo sapiens with 24 samples.

Results

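The data describe LNCaP cells in which ETV1 was lowered with a short hairpin RNA (shETV1) and then kept without androgen, set against LNCaP cells that received a control hairpin (shControl). The comparison rests on 6 arrays, 3 shETV1 arrays and 3 shControl arrays, chosen by their labels from the 24 arrays of the series. LNCaP is an established human line from a lymph node metastasis of prostate cancer. In both groups the cells had been transfected 24 h earlier, were kept in hormone-depleted medium for 2 days and were then given ethanol (EtOH, the vehicle) for 16 h. The other LNCaP arrays were made in the same way with 10 nM dihydrotestosterone (DHT) in place of EtOH, again 3 with shETV1 and 3 with shControl, and 12 further arrays hold VCaP cells with ERG silenced or with a control siRNA. The design text calls the 3 arrays of a group biological replicates, lettered A to C. The treatment labels call the LNCaP control siControl where titles and descriptions say shControl. The sources used here do not give the hairpin's sequence, and the labels name 1 hairpin against ETV1.

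ETV1 belongs to the PEA3 branch of the ETS family of transcription factors, which bind DNA around a GGAA core and are activated by growth factor signalling through RAS and MAP kinase. In prostate cancer, ETS genes are often switched on by chromosomal rearrangement, and LNCaP is known for such a rearrangement at ETV1. LNCaP cells also depend on androgen, which raises genes such as KLK3, the gene of prostate-specific antigen, and lowers others. The pair of groups described here asks which genes depend on ETV1 while little of that hormone is present.

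The arrays were alike in median intensity and correlation. Their median intensities (linear, as deposited) lay between 44.1 and 44.8 across the 6 arrays. Pairs of arrays correlated at 0.9949 to 0.9959 within a group and at 0.9923 to 0.9948 between groups, over the log2 values of the genes tested. The 3′/5′ signal ratio of GAPDH, a gauge of RNA integrity, was 1.11 ± 0.03 with shControl and 1.07 ± 0.02 with shETV1 (mean ± SD, n = 3, exact permutation p = 0.2, where 3 against 3 can reach no less than 0.1). That of ACTB was higher, 3.11 ± 0.34 with shControl and 2.96 ± 0.09 with shETV1 (exact permutation p = 0.7), with more spread among the controls. Luminal prostate genes were high, with KRT8 between 2346 and 2607, KRT18 between 4546 and 5212, HOXB13 between 3821 and 4015 and FOXA1 between 5505 and 6120 on these arrays. Of 13 markers of basal, neuroendocrine, fibroblast, endothelial and leukocyte cells, 9 were at or below the array median on all 6 arrays, and COL1A1, LUM, PECAM1 and VWF were not. Their summed level was 792 to 815 with shControl and 825 to 831 with shETV1, and the part of this in the results was not tested. RNA was measured in bulk, so fewer cells of a type and less RNA per cell cannot be told apart. ERG, another ETS gene, was near the floor on every LNCaP array at 5.99 to 13.4.

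ETV1 itself was lower in every knockdown array. Its brightest probe set read 1215, 1201 and 1030 on the shControl arrays and 769, 714 and 752 on the shETV1 arrays. All 3 knockdown arrays lay below all 3 controls. ETV1 fell by 0.61 ± 0.07 on the log2 scale (change ± standard error, log2 of intensity plus 16 here and below, limma adjusted p = 4.91e-04, 95% confidence interval −0.76 to −0.46). All 5 ETV1 probe sets were lower without overlap, by 31.0% to 37.6% of their control means. The knockdown was thus partial, with 1149 ± 103 against 745 ± 28.5 (mean ± SD, n = 3) on the brightest probe set.

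Of 12823 genes tested, 157 rose (1.22%) and 381 fell (2.97%) with shETV1, so that 538 (4.20%) passed an adjusted p of 0.05. Changes were modest in size. The median change was 0.33 among risen genes and −0.36 among fallen genes, against 0.01 over all genes tested, and only 3 risen and 10 fallen genes moved by 1 log2 unit or more. For all 538 the shETV1 arrays did not overlap the shControl arrays, which held for 3095 (24.1%) of all genes tested. The median control intensity was 374 for fallen genes, 462 for risen genes and 402 for all. Of the called genes 70.8% fell, but this share rests on 1 control array. Without shControl array B, 266 genes rose and 256 fell, or 49.0% fallen. Without shControl array A the counts were 81 and 199, and without shControl array C 96 and 284. Without shETV1 arrays A, B or C they were 102 and 210, 87 and 230, and 86 and 241. With the GAPDH ratio as a covariate, 46 genes rose and 96 fell.

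**Figure D1:**
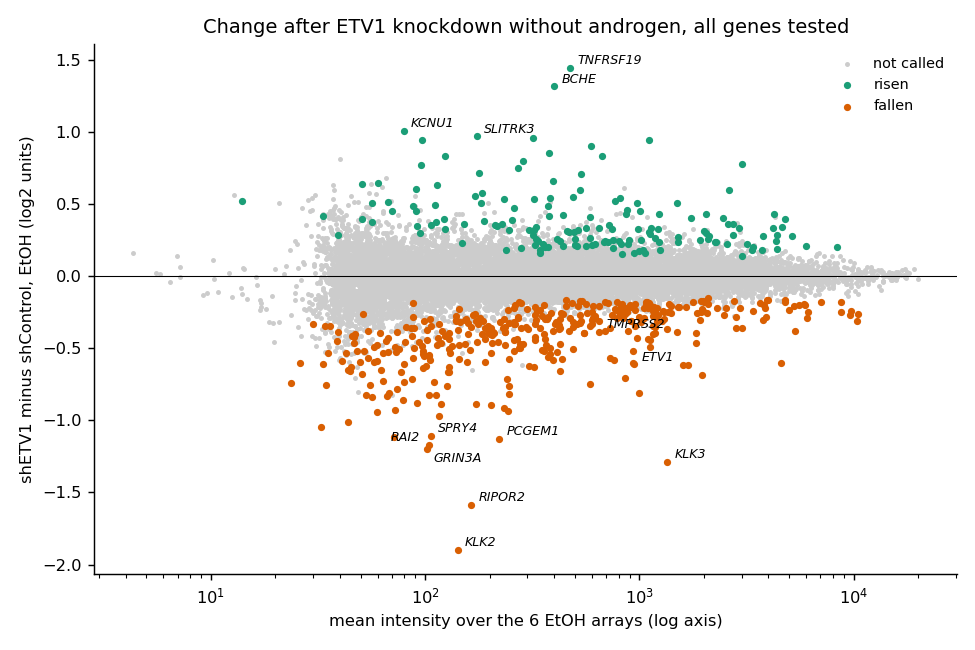
Change with shETV1 against shControl in EtOH (log2 units, vertical) against mean intensity over the 6 EtOH arrays (log axis), 1 point per gene tested; green genes rose, orange genes fell and grey genes did not pass an adjusted p of 0.05. KLK2, RIPOR2 and KLK3 lie lowest and TNFRSF19 and BCHE highest, and ETV1 lies at −0.61.

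The most affected genes are shown with the DNA around their start sites, 250 bases before to 50 after the start of the gene in the RefSeq table of build GRCh38.p14 because they bound the range of the response: the pair that fell most and the pair that rose most. Letters are 5′ to 3′ along the gene. Capitals mark exact matches to the ETS hexamers CGGAAG or AGGAAG, or to the androgen response hexamers AGAACA or GGAACA, on either strand.
KLK2, chr19:50873189-50873488, plus strand: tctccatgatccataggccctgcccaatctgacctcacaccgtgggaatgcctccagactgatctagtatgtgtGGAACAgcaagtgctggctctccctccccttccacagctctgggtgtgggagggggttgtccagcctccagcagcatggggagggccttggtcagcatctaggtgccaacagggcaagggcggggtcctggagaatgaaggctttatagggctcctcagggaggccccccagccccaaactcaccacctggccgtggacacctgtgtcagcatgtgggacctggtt
RIPOR2, chr6:24935911-24936210, minus strand: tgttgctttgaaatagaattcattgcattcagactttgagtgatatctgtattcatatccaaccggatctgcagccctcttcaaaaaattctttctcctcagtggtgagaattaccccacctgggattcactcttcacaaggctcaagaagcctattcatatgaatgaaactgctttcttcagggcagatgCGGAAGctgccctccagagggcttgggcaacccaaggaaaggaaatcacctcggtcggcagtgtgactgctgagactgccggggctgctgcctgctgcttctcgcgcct
TNFRSF19, chr13:23570162-23570461, plus strand: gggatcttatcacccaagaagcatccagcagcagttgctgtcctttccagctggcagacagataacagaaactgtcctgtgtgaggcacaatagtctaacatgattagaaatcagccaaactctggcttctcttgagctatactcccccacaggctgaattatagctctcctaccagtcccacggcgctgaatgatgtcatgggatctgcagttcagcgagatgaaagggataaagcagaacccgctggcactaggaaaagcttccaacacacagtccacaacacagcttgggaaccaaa
BCHE, chr3:165837374-165837673, minus strand: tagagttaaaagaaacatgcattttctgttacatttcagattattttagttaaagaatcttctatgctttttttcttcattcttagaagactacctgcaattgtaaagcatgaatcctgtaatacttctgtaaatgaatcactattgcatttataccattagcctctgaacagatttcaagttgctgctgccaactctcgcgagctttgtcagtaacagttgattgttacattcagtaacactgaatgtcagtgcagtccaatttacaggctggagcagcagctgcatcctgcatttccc
KLK2 holds 1 androgen response hexamer, at bases 75 to 80 of the window, and no ETS hexamer. RIPOR2 holds 1 ETS hexamer, CGGAAG at bases 192 to 197, and no androgen response hexamer. TNFRSF19 and BCHE hold neither in these windows. Such matches are common: an ETS hexamer occurred in 47.2% and an androgen response hexamer in 26.2% of all 27305 promoters in the table, and in 54.6% and 18.9% of the 10392 promoters matched to genes tested. Among 317 matched fallen genes the shares were 48.3% and 21.8%, and among 124 matched risen genes 40.3% and 16.1%.

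KLK2, which encodes the secreted protease human kallikrein 2, fell most of all genes. It read 258, 215 and 224 with shControl and 38.2, 60.6 and 54.7 with shETV1. Every knockdown array was far below every control, and the change was −1.90 ± 0.11 (limma adjusted p = 6.53e-06), a 3.73-fold fall on the scale with 16 added. Its neighbour KLK3 read 2122, 1784 and 1860 with shControl and 724, 769 and 841 with shETV1. The 3 knockdown arrays held less than the lowest control array, and KLK3 fell by 1.29 ± 0.07 (adjusted p = 6.30e-06). KLK4, another kallikrein of the same cluster, read 427, 464 and 449 against 286, 312 and 297. It fell by less, 0.56 ± 0.07 (adjusted p = 0.0014), again without overlap between the groups. All 4 probe sets of KLK2, all 3 of KLK3 and all 5 of KLK4 moved the same way, and since kallikrein sequences are alike, some of their probes may bind more than 1 of these transcripts.

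Of 30 tested genes that androgen is known to induce, the kallikreins included, 11 fell and 0 rose, with a median change of −0.17 and 23 of 30 below 0, beside 2.97% fallen and 47.7% below 0 among all genes. After KLK2, KLK3 and KLK4, PTGER4, a prostaglandin E2 receptor, fell by 0.52 ± 0.10 on 1 of 2 probe sets, and PMEPA1, a membrane adaptor that restrains TGF-beta signalling, fell by 0.44 ± 0.06. TMPRSS2, a membrane serine protease whose promoter drives ERG in many prostate cancers, read 728, 796 and 693 against 552, 572 and 561. Its groups did not overlap, and the change was −0.38 ± 0.05 (adjusted p = 0.0026). SLC45A3, EAF2, SGK1, C1orf116 and PLPP1 fell by 0.26 to 0.31. Other well-known androgen-induced genes did not pass the test, among them FKBP5 at −0.17, NDRG1 at −0.16, STEAP2 at −0.05 and CAMKK2 at 0.10. Without shControl array A the fallen members numbered 7 in place of 11.

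Of 11 tested genes that androgen is known to lower, 4 rose and 1 fell, beside 1.22% risen and 2.97% fallen among all genes. Their median change was 0.04 and 5 were below 0. BCHE, the plasma cholinesterase, rose strongly: it read 211, 212 and 245 with shControl and 577, 580 and 575 with shETV1. The knockdown values lay tightly together and far above the controls, a change of 1.32 ± 0.06 (adjusted p = 1.85e-06). SI, sucrase-isomaltase of the gut, read 270.5, 262 and 267 against 463, 522 and 497 and rose by 0.85 ± 0.06. MMP16, a membrane-bound matrix protease, rose by 0.31 ± 0.06 and DDC, the dopa decarboxylase, by 0.20 ± 0.04. The DDC call rests on 1 of its 2 probe sets, and the mean of both gave −0.04. UGT2B17, which inactivates androgens by adding glucuronic acid, read 1024, 1023 and 997 against 760, 824 and 860 and fell by 0.31 ± 0.06 although androgen lowers it. Without shETV1 array B or C, 2 members rose in place of 4, and without shControl array A the fall of UGT2B17 did not pass.

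Enzymes of steroid metabolism that passed the test all fell, 4 of 23, beside 2.97% fallen among all genes. The median of the 23 was −0.11 and 16 were below 0, beside 47.7% below 0 among all genes. Besides UGT2B17 these were AKR1C1, which reduces DHT, at −0.46 ± 0.09, STS, which frees steroids from their sulphates, at −0.36 ± 0.05, and HSD17B4, a peroxisomal dehydrogenase, at −0.23 ± 0.03. HSD17B4 read 5433, 5333 and 5447 against 4491, 4647 and 4654, and the groups did not overlap. This call rests on 1 of its 2 probe sets: the mean of both gave −0.05 and did not pass, nor did the change with the GAPDH ratio as covariate. AKR1C1 shares long stretches with its paralogs, and 3 of its 5 probe sets moved the same way. SRD5A1, which makes DHT from testosterone, was at 0.12 and HSD3B1 at 0.18, and neither passed the test. Without shControl array A, 2 members fell in place of 4.

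The second lowest gene overall was RIPOR2, an inhibitor of the small GTPase RHOA. It read 265, 255 and 241 with shControl and 68.0, 74.1 and 79.7 with shETV1. The groups stood well apart, a change of −1.59 ± 0.08 (adjusted p = 2.43e-06), and both its probe sets fell. RAI2, a retinoic acid-induced gene linked to transcriptional repression, read 140, 162 and 150 against 53.5, 62.7 and 58.4 and fell by 1.17 ± 0.07. PCGEM1, a long non-coding RNA of the prostate, read 303, 328 and 298 against 145, 133.4 and 122 and fell by 1.13 ± 0.07. In both genes every knockdown array read less than every control array. GRIN3A, an NMDA receptor subunit, read 169, 137 and 138 against 61.4, 54.0 and 50.2 and fell by 1.20 ± 0.08 on 1 probe set, while its other probe set did not move that way.

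Further genes among the 15 lowest have varied roles. IL15, a cytokine for natural killer and T cells, read 132.7, 81.7 and 97.1 against 48.0, 37.4 and 31.4. Its control arrays were spread widely but did not overlap the knockdown arrays, and it fell by 1.11 ± 0.19 (adjusted p = 0.0076). IL15 lost the call with the GAPDH ratio as covariate. SCGB2A1, a secretoglobin, was dim throughout, at 44.3 to 52.4 with shControl and 7.35 to 24.2 with shETV1, and fell by 1.04 ± 0.19. It lost the call in the fit of the 6 EtOH arrays alone, at an adjusted p below 0.01 and with the GAPDH ratio as covariate. The rest fell by 0.91 to 1.01: PLA1A, a phospholipase for phosphatidylserine; ST6GALNAC1, a sialyltransferase; TSPAN7, a tetraspanin; PLCB1, a phospholipase C that makes inositol trisphosphate; CADPS2, which primes vesicles for release; and THBS1, a matrix glycoprotein. THBS1 had 5 of 7 and PLCB1 2 of 3 probe sets moving the same way. TSPAN7 read 71.9 to 96.0 with shControl and 31.3 to 38.5 with shETV1. In EtOH, PLA1A, SCGB2A1 and TSPAN7 stood above the array medians on shControl arrays only. The place of SCGB2A1 and TSPAN7 among the 15 lowest therefore rests on the group where they were high. PLA1A was brighter on the DHT arrays, at 99.4 to 186. IGFBP3, a carrier of insulin-like growth factors, was among the brighter fallen genes, 1273 ± 96.3 against 720 ± 49.7 and −0.81 ± 0.07. CRYM, a thyroid hormone-binding protein, fell by 0.82 ± 0.06, and AHR, the dioxin receptor, by 0.78 ± 0.10. IGFBP3, CRYM and AHR were picked after their values were seen.

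Of 10 feedback genes of MAP kinase signalling, several of which PEA3 factors are known to track, 1 fell, beside 2.97% among all genes. SPRY4, an inhibitor of receptor tyrosine kinase signalling, read 146, 156 and 148 with shControl and 80.9, 46.8 and 59.5 with shETV1. It fell by 1.11 ± 0.12 (adjusted p = 4.76e-04) without overlap. The other 9 genes of that list did not pass, with SPRY1 and SPRY2 at −0.15, DUSP4 at −0.13 and CCND1, the cyclin of early G1, at −0.05. Of 19 ETS genes tested, ETV1 and ELK3 fell and 0 rose, beside 2.97% fallen and 1.22% risen among all genes. ETV1 is the target of the hairpin, so its fall was set by the design. ELK3, a serum response cofactor, read 268, 257 and 303 against 204, 189 and 188 and fell by 0.47 ± 0.07. It lost the call with the mean of its probe sets and with the GAPDH ratio as covariate. ETS1 was at −0.31, SPDEF at −0.25 and ETV6 at 0.13, and the test was passed by none of these.

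**Figure D2:**
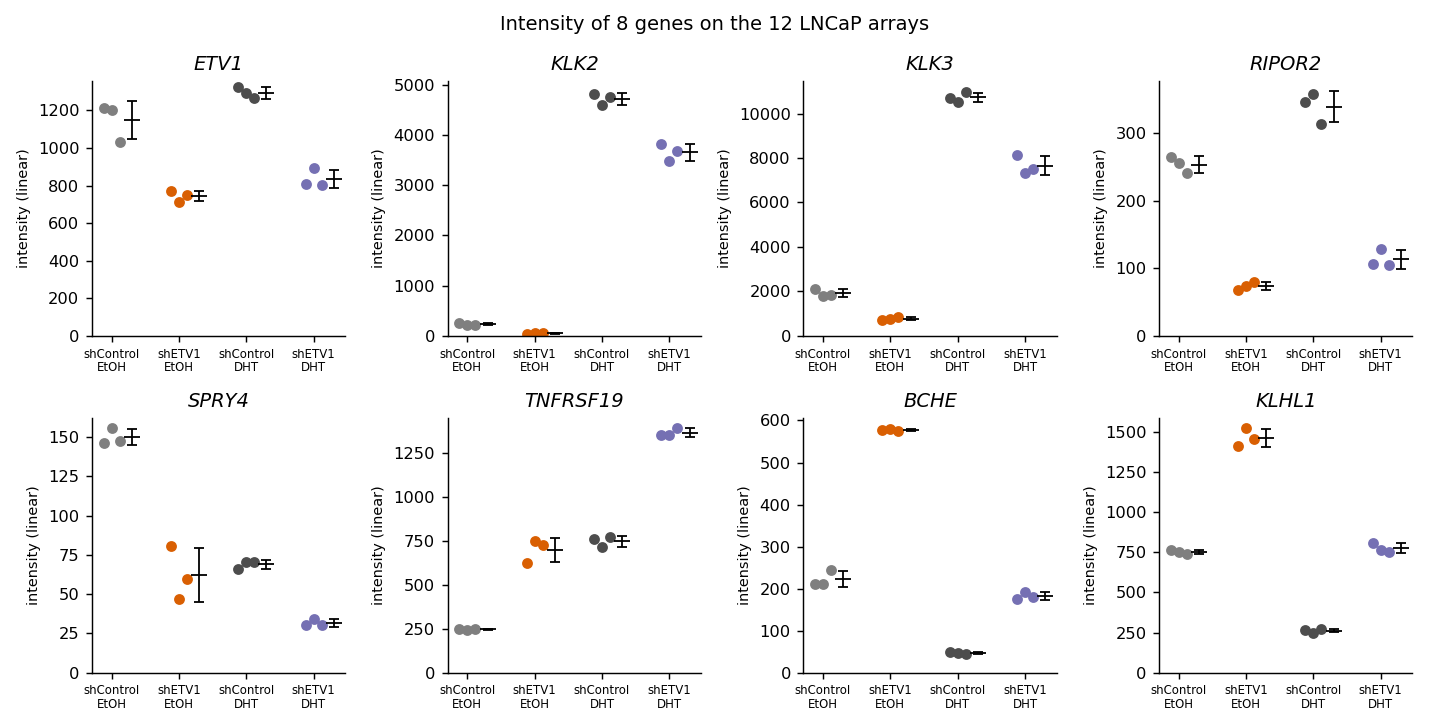
Linear intensity of 8 genes on the 12 LNCaP arrays, 1 dot per array in the order A, B, C, with the mean and SD (n = 3) beside each group. With EtOH the shETV1 arrays lie below shControl for ETV1, KLK2, KLK3, RIPOR2 and SPRY4 and above it for TNFRSF19, BCHE and KLHL1, with no overlap.

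TNFRSF19, a TNF receptor family member found in embryonic and stem cell compartments, rose most. It read 246, 245 and 248 with shControl and 624, 752 and 726 with shETV1. The controls were almost identical and all 3 knockdown arrays lay far above them, a change of 1.44 ± 0.06 (adjusted p = 1.85e-06) or 2.72-fold. KLHL1, a brain-enriched actin-binding protein, read 762, 752 and 740 against 1415, 1527 and 1459 and rose by 0.95 ± 0.05 (adjusted p = 2.13e-06). ANKRD29, an ankyrin repeat protein, read 195, 208 and 232 against 427, 439 and 411 and rose by 0.96 ± 0.06. In both genes the groups lay far apart. Among the 15 highest were several genes known for use in other tissues: KCNU1 of sperm, a potassium channel, rose by 1.01 ± 0.12; SLITRK3, a synaptic adhesion protein, by 0.97 ± 0.09; and ADAM2 of sperm by 0.75 ± 0.07. GCG, the glucagon precursor, read 505, 446 and 476 against 885, 837 and 855 and rose by 0.83 ± 0.06. MBD3L2, the weakest of the 15, rose by 0.77 ± 0.19 with an adjusted p of 0.046 and lost the call in 19 of 30 alternative settings.

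In the list of invasion and mesenchymal genes 3 of 13 fell and 0 rose, beside 2.97% fallen among all genes. The median was −0.17 and 11 of 13 were below 0, beside 47.7% among all genes. The list also holds EPCAM, an epithelial gene and its highest member, so these counts are not of mesenchymal genes alone. FN1, the matrix protein fibronectin, read 2159, 2153 and 2108 against 1568, 1544 and 1536. Both groups were tight and the fall was 0.46 ± 0.04 (adjusted p = 4.85e-05). TWIST1, a transcription factor of epithelial-mesenchymal transition, read 502, 472 and 394 against 312, 316 and 295 and fell by 0.54 ± 0.08. TWIST1 lost the call with the GAPDH ratio as covariate and in the fit of all 24 arrays. VIM, the mesenchymal intermediate filament, fell by 0.40 ± 0.09, on 1 of 2 probe sets. Of 8 proteases and inhibitors linked to PEA3 factors, 1 rose, MMP16, and 0 fell, beside 1.22% risen and 2.97% fallen among all genes. MMP16 kept its call in 22 of 30 alternative settings and lost it without any 1 of the 3 shETV1 EtOH arrays. CDH1, E-cadherin, at −0.06 did not pass.

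Of 17 luminal genes 3 fell and 1 rose, with a median of −0.02, beside 2.97% fallen and 1.22% risen among all genes. ACP3, prostatic acid phosphatase, read 5175, 5779 and 5592 against 3461, 3709 and 3698 and fell by 0.60 ± 0.05 (adjusted p = 4.85e-05); KLK3 and TMPRSS2 were the others. DPP4, a cell surface peptidase, rose by 0.51 ± 0.06. KRT8, KRT18, FOXA1 and HOXB13, which mark the identity of the cells, were between −0.05 and 0.04. Of 5 basal genes 3 fell, beside the same 2.97%, with a median of −0.25: ITGA6, a laminin receptor, by 0.28 ± 0.05, EGFR by 0.25 ± 0.05 and DST by 0.23 ± 0.05. The basal keratins KRT5 and KRT14 stayed near the floor on these arrays, at 5.86 to 14.2 and 10.4 to 33.8. Without shControl array C or any 1 of the 3 shETV1 arrays, only 1 basal gene passed. ITGA6 and EGFR lost the call with the GAPDH ratio as covariate.

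WNT and TGF-beta components changed in few members. In the WNT list 3 of 20 fell and 0 rose, with a median of −0.03, beside 2.97% fallen among all genes. WNT5A, a ligand of non-canonical signalling, read 152, 162 and 146 against 93.6, 103 and 115 and fell by 0.50 ± 0.07. The receptor FZD1 fell by 0.36 ± 0.07 and TCF7L2, the nuclear partner of beta-catenin, by 0.32 ± 0.05. WNT5A and TCF7L2 lost the call with the GAPDH ratio as covariate. In the TGF-beta and BMP list 2 of 23 fell and 0 rose, beside the same 2.97%, with a median of 0.00 to 2 decimals. BMPR1B, a BMP receptor, read 883, 961 and 896 against 573, 639 and 601 and fell by 0.58 ± 0.05 (adjusted p = 6.48e-05), and PMEPA1 was the other.

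Of 21 p53 targets 3 rose and 0 fell, with a median of 0.13 and 2 below 0, beside 1.22% risen and 47.7% below 0 among all genes. DDB2, a DNA damage sensor, rose by 0.36 ± 0.08, SESN2 by 0.26 ± 0.06 and ZMAT3 by 0.25 ± 0.06. CDKN1A, the cell cycle inhibitor p21, was at 0.11 and MDM2 at 0.22, and neither passed. Of 26 genes of the ATF4 amino acid response 2 rose and 0 fell, with a median of 0.12 and 2 below 0, beside the same shares of all genes. SLC7A5, a transporter of large neutral amino acids, read 367, 387 and 433 against 600, 566 and 588 and rose by 0.55 ± 0.06 (adjusted p = 5.37e-04), and SESN2 was the other. The p53 calls were unsteady: 0 remained without shControl array A, shETV1 array A or shETV1 array C, and 1 without shControl array C or shETV1 array B. The ATF4 count was 1 without shControl array A or shETV1 array B or C, and 4 without shControl array B. An uneven split of signs was not particular to these 2 lists. Below 0 were 2 of 27 chromatin genes and 5 of 25 of the respiratory chain. For ribosome biogenesis it was 7 of 27 and for RNA interference 4 of 13. The split went the other way in mitosis, with 26 of 30 below 0, and in DNA replication, with 22 of 33.

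Growth and housekeeping lists had few calls. For the counts that follow, 1.22% of all genes rose, 2.97% fell and 47.7% were below 0. In mitosis 26 of 30 genes were below 0 with a median of −0.10, but only HMMR passed, at −0.19 ± 0.04, and it passed in 9 of 30 alternative settings. PLK1, a mitotic kinase, was at −0.38 and MKI67 at −0.13 without passing. Of 33 DNA replication genes none passed, nor did any of 24 genes of the unfolded protein response, 27 of ribosome biogenesis and the MYC program, 25 of the respiratory chain, 26 of glycolysis and hypoxia, 10 immediate early genes, 9 of NF-kB signalling or 13 of the RNA interference machinery, in the limma test at an adjusted p of 0.05. In fatty acid synthesis FASN rose by 0.25 ± 0.06 and ELOVL5 fell by 0.20 ± 0.04, of 19, and in cholesterol synthesis MSMO1 fell by 0.22 ± 0.05, of 17. FASN rests on 1 of its 2 probe sets and kept its call in 13 of 29 alternative settings, with changes down to 0.09. In the interferon list ISG15 rose by 0.22 ± 0.05 and IFI44 fell by 0.35 ± 0.08, of 25, and they kept their calls in 13 and 15 of 29 alternative settings. In the heat shock list CHORDC1 rose by 0.26 ± 0.05 and HSPB8 fell by 0.66 ± 0.08, of 16, each on 1 of 2 probe sets. In the chromatin list KDM5B rose by 0.25 ± 0.05, of 27, with 3 of 5 probe sets moving the same way. DDC was the neuroendocrine gene that rose, of 6, and VWF, an endothelial gene, rose by 0.40 ± 0.09, of 9 from other cell types. The VWF call rests on 1 of its 2 probe sets and was kept in 16 of 29 alternative settings. Over the 29 lists 48 of 517 distinct genes tested passed, beside 4.20% of all genes. The lists were chosen with earlier results of these data known, so no enrichment is read from this.

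**Figure D3:**
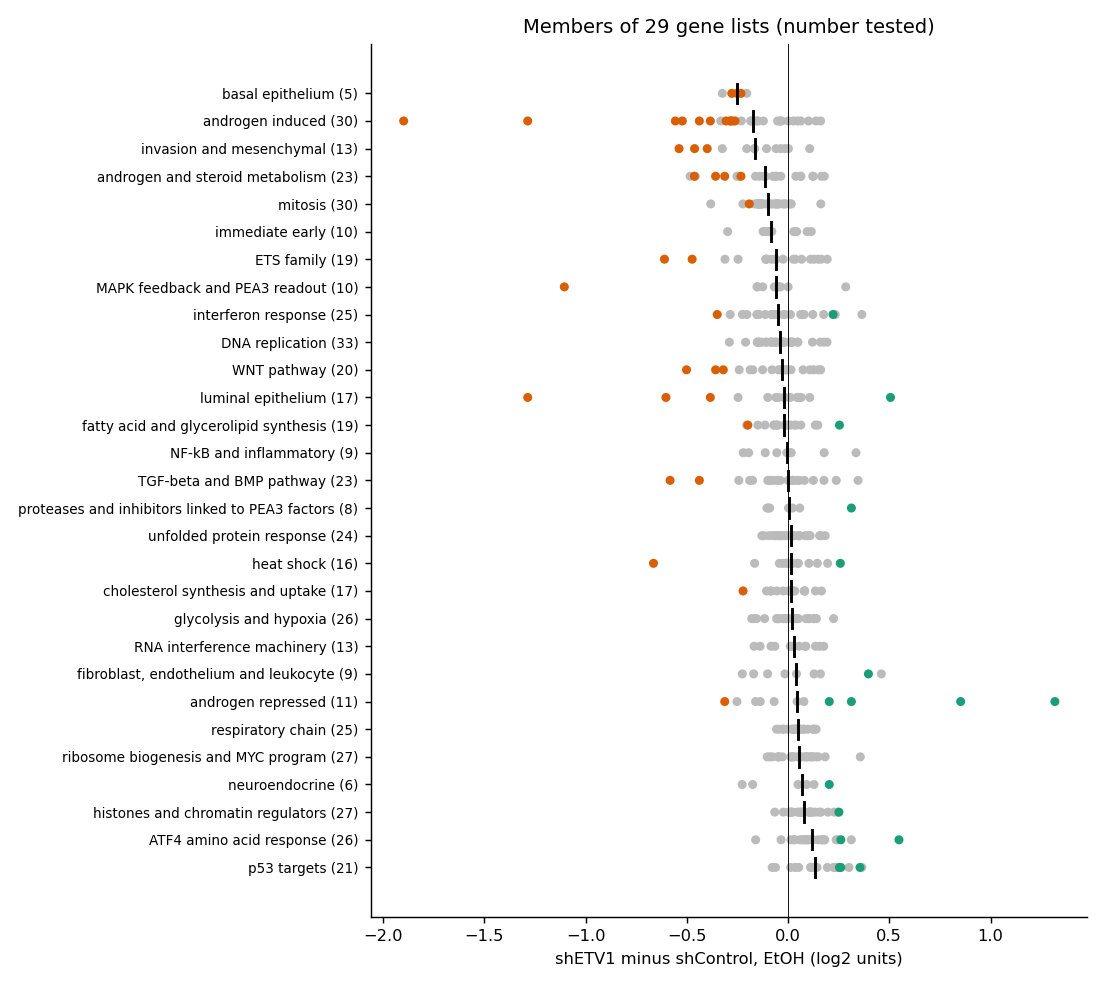
Change with shETV1 against shControl in EtOH (log2 units) for each tested member of 29 gene lists, with the number tested in brackets and a black bar at the list's median; green members rose, orange members fell and grey members did not pass. The androgen induced list reaches from KLK2 at −1.90 up to 0.16 and holds 11 fallen members.

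Several of the strongest changes lay side by side in the genome. The tested genes were put in the order of the RefSeq table of GRCh38.p14. There 40 of the 157 risen genes stood next to another risen gene, in 15 runs. Likewise 56 of the 381 fallen genes stood next to another fallen gene, in 26 runs. Among all genes tested, 1.22% rose and 2.97% fell. Both members had risen in 25 and fallen in 30 of the 12785 pairs of neighbours. This view was taken after the values were seen and has no test. On chromosome 3, SI, SLITRK3, BCHE and ZBBX were consecutive and rose by 0.85 to 1.32, and a little further on MECOM, ACTRT3 and MYNN rose by 0.49 to 0.80. From SI to MYNN, 8 of 11 tested genes rose and 0 fell, and the others, PDCD10, LRRC77P and GOLIM4, did not pass. MYNN, a zinc finger protein, read 2212, 2206 and 2197 against 3743, 3785 and 3849, with little spread in either group, and 5 of its 6 probe sets moved the same way. On chromosome 13, TNFRSF19, MIPEP and PCOTH were consecutive. MIPEP, a protease of mitochondrial import, read 420, 390 and 416 against 752, 806 and 779 and rose by 0.90 ± 0.04, and PCOTH rose by 0.83 ± 0.08. The genes to either side of these, LINC00621 at 0.11 and SPATA13 at −0.03, did not pass, so the run did not extend to the next gene on either side.

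The longest run was on chromosome 16 and held the metallothioneins, small proteins that bind zinc and copper. MT2A, MT1E, MT1F, MT1G, MT1H, MT1X and NUP93 rose by 0.28 to 0.54. MT1H stood at 2118 ± 56.0 with shControl and 2805 ± 79.2 with shETV1, a change of 0.40 ± 0.04, and MT2A at 4668 ± 115 and 5667 ± 356, a change of 0.28 ± 0.06. The metallothionein transcripts are near copies and their probe sets may bind more than 1 of them, so their rises cannot be counted as independent. NUP93, a nuclear pore protein that is no metallothionein, rose by 0.34 ± 0.04. The fallen run of KLK3, KLK2 and KLK4 on chromosome 19 has been given above.

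**Figure D4:**
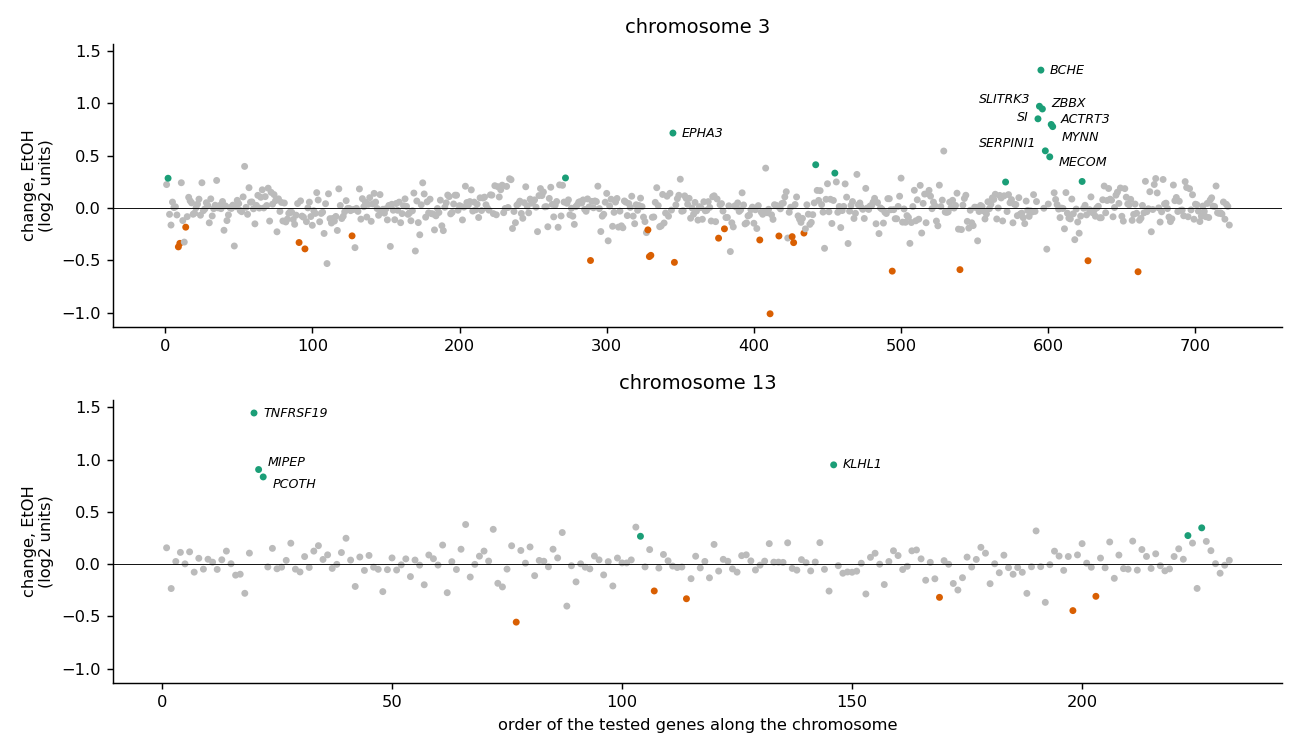
Change with shETV1 against shControl in EtOH (log2 units) for every tested gene of chromosomes 3 and 13, in gene order along each chromosome; green genes rose, orange genes fell and grey genes did not pass. The group from SI to MYNN on chromosome 3 and that from TNFRSF19 to PCOTH on chromosome 13 stand above neighbours near 0.

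The arrays with DHT hold the same knockdown in other cultures and share no array with the EtOH groups. There 344 genes rose (2.68%) and 321 fell (2.50%). Of the 381 genes that fell without androgen 181 also fell with DHT, 47.5% of the EtOH list and 56.4% of the DHT list. Of the 157 that rose 84 also rose with DHT, 53.5% of the EtOH list and 24.4% of the DHT list. In sign alone, 361 of the 381 fallen genes were below 0 with DHT, against 42.3% of all genes, and 148 of the 157 risen genes were above 0. ETV1 fell by 0.62 with DHT, RIPOR2 by 1.46, RAI2 by 1.20, GRIN3A by 1.36 and PLCB1 by 0.95, each close to its change without androgen. Among the 15 lowest, KLK2 (−0.37), IL15 (−0.13) and SCGB2A1 (−0.54) did not pass with DHT, while the rest of the 15 did. BCHE rose by 1.65 and SLITRK3 by 1.32. Of the run on chromosome 3, 7 of the 8 risen genes rose with DHT too, as did all 3 on chromosome 13, but of the 7 genes of the metallothionein run only NUP93 did. The 265 genes called in 1 direction in both media became 166 to 221 when single arrays were left out, with the count more than 1.5 times lower without shControl EtOH array A (166), shETV1 EtOH array B (176), shControl DHT array A (170) or B (173) or shETV1 DHT array A (169).

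Of the 30 androgen-induced genes 3 fell with DHT, beside 2.50% of all genes, and 11 fell with EtOH. The difference between these counts was not tested. Those fallen with DHT were KLK3, lower by 0.49 (adjusted p = 0.0042), and TMPRSS2, lower by 0.22 (adjusted p = 0.044). The third was STEAP4, a metalloreductase, lower by 0.56 (adjusted p = 0.0035) after −0.12 in EtOH. KLK2 read 4806, 4590 and 4761 with shControl and DHT, and 3818, 3473 and 3673 with shETV1 and DHT. The groups still did not overlap, but the change was −0.37 ± 0.11 with an adjusted p of 0.091. KLK4 was at −0.01, PMEPA1 at −0.15 and SGK1 at 0.13 with DHT, without passing. Of the 11 genes that androgen lowers 6 rose with DHT, beside 2.68% of all genes, and 4 rose with EtOH. Their median change was 0.39 with DHT and 0.04 with EtOH, and this difference was not tested either. BCHE, SI, MMP16 and DDC rose in both media.

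A direct test of the difference between media, the interaction term of the limma fit, called 13 genes (0.101%), 10 upward and 3 downward, and 962 genes had an unadjusted p under 0.05. KLK2 differed by 1.53 ± 0.16 (adjusted p = 0.0081), and for KLK3 the difference was 0.80 ± 0.10 (adjusted p = 0.020), both lowered more, in log2 terms, without androgen. In linear intensity the gap of KLK2 was wider with DHT, with means of 4719 and 3654, than in EtOH, with 233 and 51.2. CTBP1-AS, an antisense RNA induced by androgen, read 137, 147 and 160 against 79.4, 74.7 and 75.5 in EtOH and 869, 860 and 844 against 807, 781 and 860 with DHT. It fell by 0.82 ± 0.06 without androgen and was at −0.07 with DHT, and the difference was 0.75 ± 0.08 (adjusted p = 0.0081). Its probe set carries that name in the platform annotation, and whether CTBP1 transcripts bind it was not tested. KLHL1 rose in both media but more with DHT, 0.95 against 1.52 (difference 0.57 ± 0.06, adjusted p = 0.0091), and TNFRSF19 more without, 1.44 against 0.85 (difference −0.59 ± 0.09, adjusted p = 0.048). CAMK2N1, an inhibitor of CaM kinase II, was at 0.06 without androgen and rose by 0.72 with DHT (difference 0.66 ± 0.05, adjusted p = 0.0010), and ACAD8, a valine-degrading enzyme, was at −0.05 and fell by 0.51 (difference −0.46 ± 0.05, adjusted p = 0.0097). When single arrays were left out, 7 to 12 interactions passed, with 7 or 8 unless the array was shControl EtOH C, shETV1 DHT B or shETV1 DHT C.

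**Figure D5:**
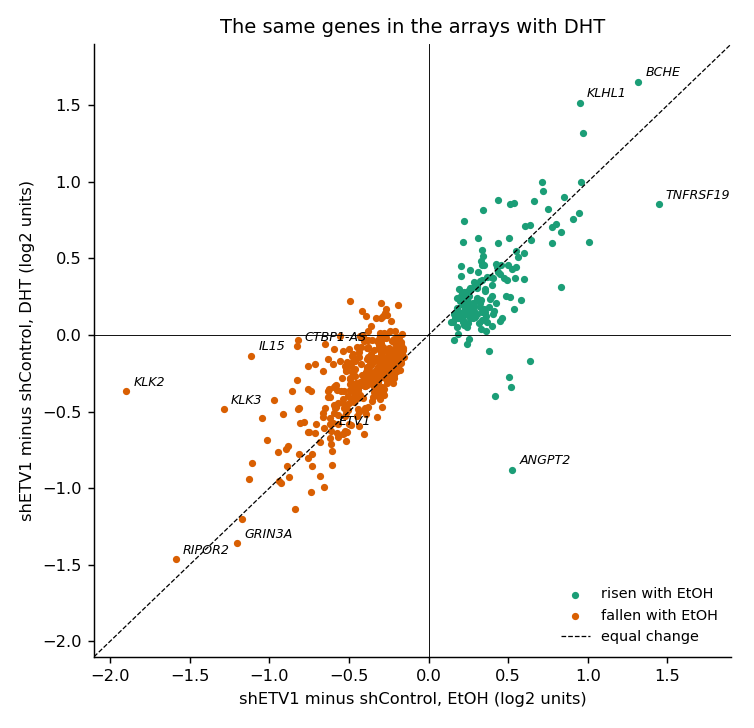
Change with shETV1 against shControl in DHT (vertical) against that in EtOH (horizontal), both in log2 units, for the 157 risen (green) and 381 fallen (orange) genes; the dashed line marks equal change. RIPOR2, GRIN3A and BCHE lie near the line, KLK2, KLK3, IL15 and CTBP1-AS lie above it near or towards 0, and ANGPT2, below the array medians in EtOH, lies at 0.52 in EtOH and −0.88 in DHT.

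ANGPT2, a ligand of the TIE2 receptor of blood vessels, lay above the array medians only with DHT. It read 11.6, 6.65 and 7.37 with shControl and 16.9, 24.6 and 16.6 with shETV1 in EtOH, all below the array medians, and 151, 130 and 163 against 73.3, 61.0 and 86.2 with DHT. ANGPT2 passed the filter on low values through the DHT arrays alone. The EtOH difference of 0.52 ± 0.13 (adjusted p = 0.046) lost its call in 20 of 30 alternative settings, and no direction is read from it. The fall with DHT was 0.88 ± 0.13 (adjusted p = 0.0030). PCNX2 and PROSER2-AS1 were called in opposite directions, both by small amounts, and the change of PROSER2-AS1 lay at group means of 26.4 to 45.0, near or below the array medians. PCNX2 fell by 0.19 in EtOH and rose by 0.20 with DHT, and PROSER2-AS1 rose by 0.42 and fell by 0.40.

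For orientation, the response to DHT of the same genes in control cells can be set beside the knockdown. Both comparisons use the shControl EtOH arrays, so no relation between them was computed. In shControl cells DHT raised KLK2 by 4.26, KLK3 by 2.47, TMPRSS2 by 3.04, CTBP1-AS by 2.42 and TNFRSF19 by 1.54 on the log2 scale. The changes were −1.92 for BCHE, −1.61 for SI, −1.67 for SLITRK3 and −1.47 for KLHL1. RIPOR2 rose by 0.40 and RAI2 fell by 0.40 with DHT, small beside their changes with shETV1. In shETV1 cells, where other arrays serve as the base, DHT raised KLK2 by 5.79 and KLK3 by 3.28.

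VCaP, another androgen-dependent prostate line that carries an ERG rearrangement, offers arrays that share none with LNCaP. With control siRNA, DHT raised 19.6% and lowered 25.4% of the genes tested in VCaP. Of the 372 fallen LNCaP genes tested there, 78 (21.0%) rose and 163 (43.8%) fell with DHT in VCaP, and of the 151 risen genes 27 (17.9%) rose and 57 (37.7%) fell. Silencing ERG in EtOH raised 5.37% and lowered 5.87% of the VCaP genes. Of the fallen LNCaP genes 51 (13.7%) rose and 56 (15.1%) fell with siERG, and of the risen genes 20 (13.2%) rose and 12 (7.95%) fell. KLK2 was at −0.13, KLK3 at 0.03 and BCHE at −0.57 after ERG silencing, while PCGEM1 rose by 0.59 and TNFRSF19 by 0.90. Of these, KLK2 and KLK3 did not pass the test in VCaP and BCHE fell.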

How the data were processed

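Total RNA was extracted with Trizol, and biotin-labelled cRNA was hybridised to Affymetrix HG-U133 Plus 2.0 arrays, per the labels' protocols. The authors deposited 1 linear intensity per probe set and array, used here as deposited; the sources used here do not say how scans were summarised and scaled. Of 54675 probe sets, 41097 named 1 gene and 1801 several, which were left out. Symbols of 41043 were found in the RefSeq gene table (GRCh38.p14), with 0 changed. Each gene took its brightest probe set over the 24 arrays, and a gene was tested where 3 or more of the 12 LNCaP arrays held it above their median. Log2 of intensity plus 16 was fitted with limma 3.58.1 in R 4.3.3 on 12 arrays in 4 groups (8 residual degrees of freedom), with Benjamini-Hochberg adjustment over all 12823 genes at 0.05. The added 16 shrinks changes of dim genes. The number of arrays limits precision.

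Named genes are the 15 lowest and 15 highest called changes without overlap between arrays, up to 2 risen and 2 fallen members of each list by adjusted p, the 5 highest and lowest interactions, and ETV1, ERG, TMPRSS2 and KLK3; a few others, such as list members beside these and genes of a run, were picked after their values were seen. The members and lists were chosen with earlier results of these data known. Same-lettered EtOH arrays did not deviate together (correlations 0.125, −0.103 and −0.092), so letters were not used as pairs.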

Additional observations from a re-analysis of the deposited data

Results flagged for a closer look

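The effect of ETV1 knockdown differed between DHT and EtOH for 13 genes by the limma interaction term (effect with DHT minus effect with EtOH, log2 units, adjusted p below 0.05, 3 arrays in each of 4 groups). The 5 highest differences and all 3 negative ones are given. The difference was positive for KLK2 (1.53), KLK3 (0.80), CTBP1-AS (0.75), CAMK2N1 (0.66) and KLHL1 (0.57). It was negative for ANGPT2 (−1.40), TNFRSF19 (−0.59) and ACAD8 (−0.46). Across the alternative settings CAMK2N1 kept its call in 28 of 29, KLK2 in 25 of 28 and CTBP1-AS in 26 of 29, while KLK3 kept it in 16 of 28, ANGPT2 in 19 of 29 and TNFRSF19 in 9 of 29. ANGPT2 lay below the array medians on all 6 EtOH arrays, at 6.65 to 24.6, and passed the filter through the DHT arrays alone. Its difference ranged from −2.11 to −0.83 over the alternatives.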

How the results depend on the processing

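Groups of 3 arrays limit what can be called, and some choices changed the counts of risen and fallen genes by over 1.5 times. Risen genes (157) numbered 260 with every probe set as its own feature, 83 with no filter on intensity, 255 with trend and robust variance, 256 with array weights, 79 in a fit of the 6 EtOH arrays alone, 65 at an adjusted p below 0.01, 3 at a change of at least 1 log2 unit and 46 with the GAPDH ratio as covariate. Fallen genes (381) numbered 241 with the mean of all probe sets, 192 with no filter, 202 in the 6 arrays, 146 at 0.01, 10 at 1 log2 unit and 96 with the GAPDH ratio. DHT calls (665) numbered 1305 by probe set, 332 with no filter, 222 at 0.01, 11 at 1 log2 unit and 440 with the GAPDH ratio. Genes called alike in both media (265) numbered 143, 114, 4 and 108 under the last 4 kinds of change. Interaction calls (13) numbered 7 with the mean of probe sets, 4 without sets ending in x_at or s_at, 5 with no filter, 20 with a filter at the 60th percentile, 39 with trend, 22 with weights, 28 in the fit of 24 arrays, 6 at 0.01, 2 at 1 log2 unit, 4 with the GAPDH and 1 with the ACTB ratio. The cause was not tested.

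With the letter as a replicate block, 112 genes rose and 285 fell, 382 of these 397 shared with the 538; DHT calls were 429 and the interaction call was 1, CAMK2N1.

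When single arrays were left out, risen genes ranged from 81 to 266, fallen from 199 to 361, DHT calls from 328 to 629 (364 and 329 without shControl DHT A and B, 328 and 353 without shETV1 DHT A and C), interaction calls from 7 to 12, calls in both media from 166 to 221 and the ETV1 change from −0.69 to −0.57. The ETV1 change of −0.61 did not pass in the fit of 24 arrays or at 1 log2 unit. DDC turned to −0.04 with the mean of probe sets, and HSPB8 to 0.03 and KDM5B to −0.03 without x_at and s_at sets. Quantile and median scaling kept all 73 gene results and moved the median of all genes to −0.0022 and 0.014.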
